A study of Mus musculus with 4 samples.

Results

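The 38 genes described here encode proteins of the extracellular matrix other than collagens, enzymes that cross-link the matrix, and proteins that mark cardiac fibroblasts. They were chosen by name, as rows of the deposited tables whose gene symbol was on the list, and all 38 were found among 22322 genes. RNA was sequenced from cardiomyocytes of male mice that had undergone a sham operation (2 libraries) or transverse aortic constriction (TAC, 2 libraries), an operation that narrows the aorta and loads the left ventricle. The mice were operated on as young adults, no genotype is given in the labels, and the hearts were examined 14 weeks after the operation. Cells of both groups were released by Langendorff perfusion, and each library came from a part of the myocytes of a single heart, so that every library stands for a separate heart.

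Fibroblasts lie between the muscle cells of the heart and secrete most of its interstitial matrix. Small leucine-rich proteoglycans such as decorin and lumican bind collagen fibrils and set their spacing, fibrillins and fibulins form the scaffold on which elastin is laid down, and matricellular proteins such as SPARC, periostin and the thrombospondins adjust how cells adhere to it. Laminins, nidogen and perlecan build the basement membrane, which surrounds cardiomyocytes and capillaries as well, and lysyl oxidases cross-link collagen and elastin. In the intact heart a pressure load is known to raise many of these genes, whereas a preparation of isolated cardiomyocytes holds RNA of fibroblasts only as far as such cells are carried over.

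The libraries held 24237777 to 32118323 expected counts. They did not stand alike: mitochondrial genes took 47.4% of the counts in TAC 1 (95% Wilson interval 47.40% to 47.43%, counting error only) and 39.8% to 40.9% in the other 3, and the replicates of each group differed by more than sampling noise. The cell type on the label was borne out by the 12 cardiomyocyte markers examined, whose summed level was 62770 to 72120 CPM (counts scaled to a common library size with TMM factors, the trimmed mean of M-values), with Myh6, the main myosin heavy chain of the adult mouse heart, at 24725 and 29438 CPM in the shams. The 38 matrix and fibroblast genes together reached 1469 and 1177 CPM in the shams and 803 and 973 CPM in the TAC libraries. Here and below, values are given for replicates 1 and 2 of sham and then of TAC. Both TAC libraries were below both sham libraries in the summed level, and in both groups the libraries differed from each other. Gelsolin (Gsn) and perlecan (Hspg2) made up 34.9% to 36.3% of that sum. In RNA from a bulk of cells, fewer cells of a type and less RNA per cell cannot be told apart, and this holds for every fall given below.

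Compared per length, as deposited FPKM (fragments scaled by transcript length and library size), the levels ran over more than 3 orders of size. Gsn, an actin-severing protein abundant in fibroblasts, was highest with a mean of 65.3 FPKM over the 4 libraries. It was followed by Sparc, a collagen-binding matricellular protein, at 38.9 FPKM, its relative Sparcl1 at 38.2, decorin (Dcn) at 38.2 and osteoglycin (Ogn) at 30.3. Sparc, Sparcl1 and Dcn could not be ordered, because their order differed between libraries. Dcn was above Sparc and Sparcl1 in sham 1 (59.6 against 57.1 and 55.5 FPKM) and below them in TAC 1 (19.8 against 23.0 and 21.6 FPKM). Gsn was above all of these genes in each library. Hspg2 (17.3 FPKM), biglycan (Bgn, 15.8) and laminin gamma 1 (Lamc1, 13.4) came next. At the lower end stood Lox at 0.23 FPKM, Loxl3 at 0.21, tenascin C (Tnc) at 0.060 and osteopontin (Spp1) at 0.052. Spp1, a cytokine-like matrix protein known to be made by macrophages in injured hearts, had 1, 7, 1 and 0 counts in the 4 libraries, and was the only gene of the 38 that did not pass the filter on low counts.

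**Figure D1:**
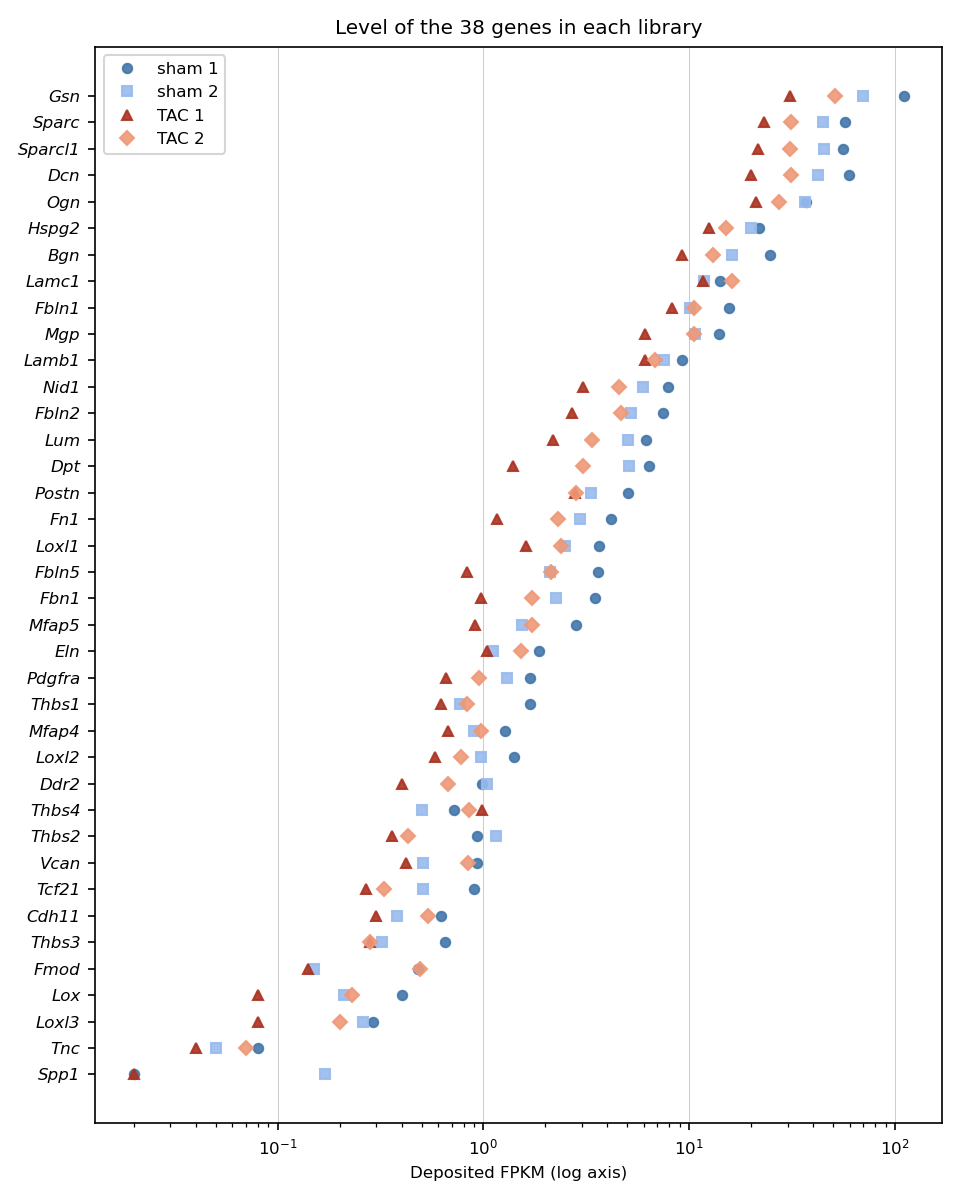
Deposited FPKM of each of the 38 genes (log axis), 1 point per library, genes ordered by their mean over the 4 libraries. Gsn heads the order at a mean of 65.3 FPKM and Spp1 ends it at 0.052, and for most genes sham 1 lies furthest right and TAC 1 furthest left; a value of 0 (Spp1 in TAC 2) is not drawn.

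TAC was compared with sham to ask whether these genes changed in myocyte preparations from loaded hearts. Of the 37 genes tested, 9 fell and none rose at a Benjamini-Hochberg adjusted p under 0.05 in the edgeR quasi-likelihood test, against 2.43% of all 12499 genes called lower and 2.58% called higher. The 9 were Gsn, Dcn, lumican (Lum), Ogn, dermatopontin (Dpt), Sparc, Sparcl1, thrombospondin 2 (Thbs2) and nidogen 1 (Nid1). At an unadjusted p under 0.05 there were 18 lower (14.0% of all genes) and 1 higher, thrombospondin 4 (Thbs4). The log2 fold change was below 0 in 34 of the 37 (50.9% of all genes), with a median of -0.62 against -0.01 over all genes tested. Both TAC libraries were below both sham libraries for 24 of the 37, where the same held for 30.3% of all genes. The list was chosen with earlier results of these data known, so these comparisons with all genes describe it and do not test it. With DESeq2, 13 genes were called lower (2.68% of 16015 genes) and none higher. These were the 9 without Gsn, and Bgn, Fbn1, Fbln2, Fn1 and Hspg2. The 16015 include genes to which DESeq2 gave no adjusted p, so that share is a lower bound. Among the 38 genes, Tcf21, Fmod, Tnc, Loxl3 and Spp1 had no DESeq2 adjusted p.

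**Figure D2:**
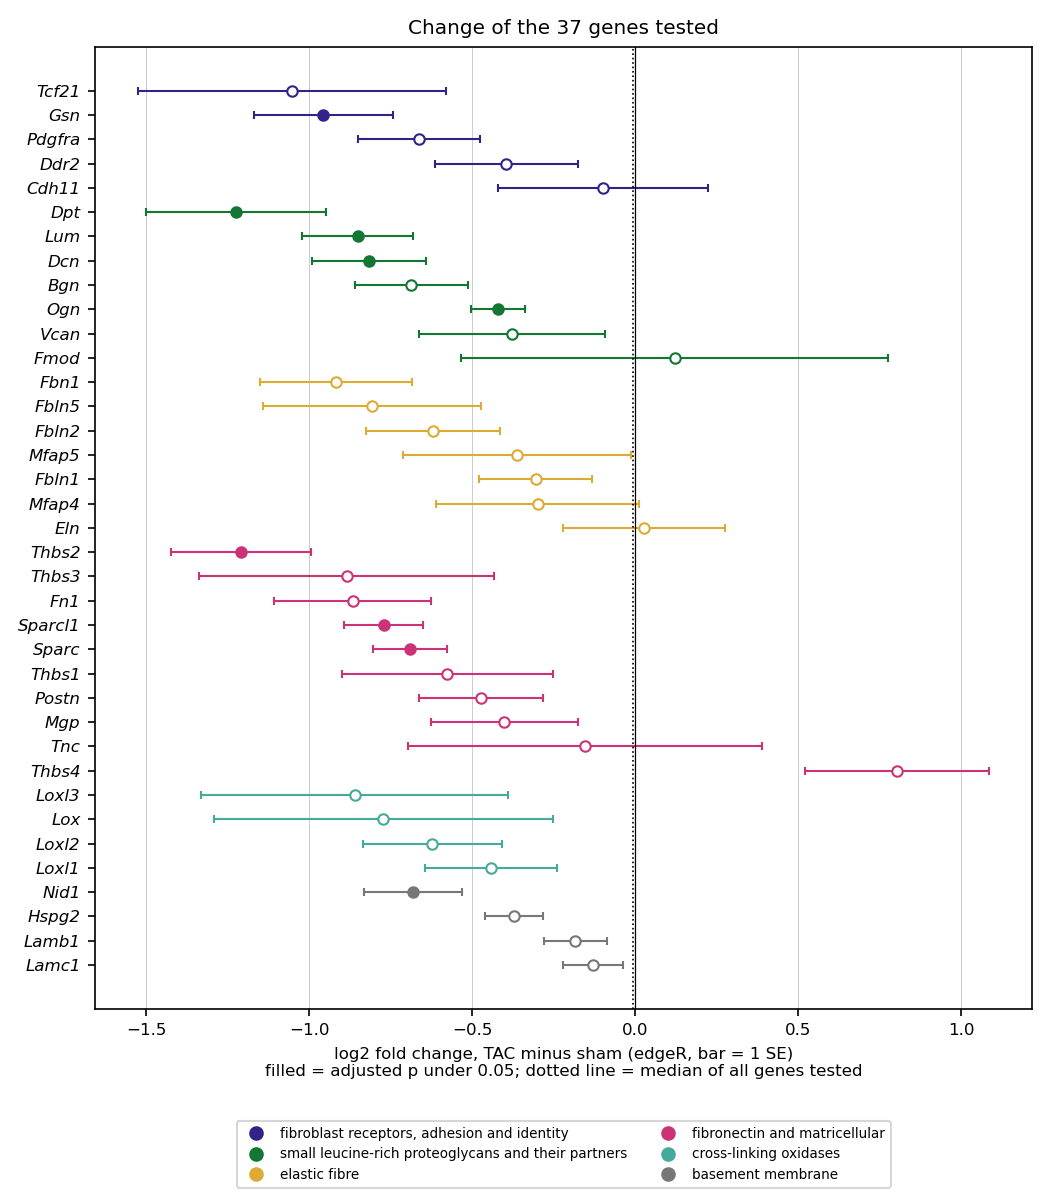
Log2 fold change of TAC against sham for the 37 genes tested by edgeR, grouped and coloured by role, bars showing 1 standard error; filled points have an adjusted p under 0.05, and the dotted line is the median of all genes tested (-0.01). The 9 filled points all lie left of 0, and Thbs4 is the gene furthest to the right at 0.80.

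Among the 5 genes of fibroblast receptors, adhesion and identity, 1 fell and the median log2 fold change was -0.66. In this class and in the classes and lists below, counts called lower by edgeR stand beside 2.43% of all genes. Gsn stood at 265 and 177 CPM in the shams and 93.8 and 134 CPM in the TAC libraries. The groups did not overlap, although sham 1 was well above sham 2, and Gsn fell by 48.5% (log2 fold change -0.96 ± 0.21 SE, n = 2 per group, edgeR adjusted p = 0.0496). The call was lost in 6 of 13 alternatives, among them DESeq2 (adjusted p = 0.114). Tcf21, a transcription factor of the fibroblast lineage, had few reads, with 33 and 18 counts in the shams and 11 and 10 in the TAC libraries. Its log2 fold change was -1.05 ± 0.47 and did not pass the test (edgeR adjusted p = 0.198). The growth factor receptor Pdgfra was at -0.66 ± 0.19 (edgeR adjusted p = 0.0814), the collagen receptor Ddr2 at -0.40 ± 0.22 and the fibroblast cadherin Cdh11 at -0.10 ± 0.32, none of them called.

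The small proteoglycans and their partners held the most calls, with 4 of 7 genes lower and a median of -0.69. Dcn, which binds collagen and transforming growth factor beta, stood at 95.5 and 71.0 CPM in the shams and 40.1 and 54.6 CPM in the TAC libraries. It fell by 43.2% (log2 fold change -0.82 ± 0.18, edgeR adjusted p = 0.0460). Lum, a keratan sulfate relative of Dcn that also binds collagen fibrils, was at 13.7, 11.9, 6.13 and 8.14 CPM in the same order. Both shams again lay above both TAC libraries, and Lum fell by 44.6% (-0.85 ± 0.17, edgeR adjusted p = 0.0385). Ogn differed in that its sham libraries were close together, at 85.9 and 89.9 CPM, with TAC 1 at 62.0 and TAC 2 at 69.4. With the smallest change of the 9, it fell by 25.3% (-0.42 ± 0.08, edgeR adjusted p = 0.0371). Dpt, a small protein that binds Dcn, was at 10.05, 8.41, 2.76 and 5.19 CPM. With the largest change of the 9, it fell by 57.2% (-1.23 ± 0.28), but its edgeR adjusted p of 0.04998 lay at the threshold and its TAC libraries differed from each other, on the log2 scale, by more than TAC 2 did from sham 2.

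Of the other genes in this class, Bgn was at -0.69 ± 0.17 and missed the threshold (edgeR adjusted p = 0.0642, DESeq2 adjusted p = 0.00319), and versican (Vcan), a large proteoglycan, was at -0.38 ± 0.28. Fibromodulin (Fmod), which binds collagen fibrils at the site that lumican uses, had 43 and 13 counts in the shams and 14 and 37 in the TAC libraries. The libraries of each group lay far apart and the groups overlapped, and its log2 fold change of 0.12 ± 0.65 (edgeR adjusted p = 0.923) changed sign with total-count scaling and with the deposited FPKM.

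None of the 7 elastic fibre genes was called by edgeR, with 3 lower at an unadjusted p under 0.05 and a median of -0.36, while DESeq2 called 2 lower, Fbn1 and Fbln2. Fbln1, which binds fibronectin and elastin and had the highest FPKM among them, was at 37.0, 25.2, 23.7 and 26.7 CPM. Sham 2 lay between the TAC libraries, so that the log2 fold change of -0.31 ± 0.17 rested on sham 1 (edgeR adjusted p = 0.293, and 0.002 on the log2 scale without that library). Elastin (Eln) was at 6.04, 3.75, 4.63 and 5.40 CPM, with both TAC libraries inside the range of the shams. Its value of 0.03 ± 0.25 (edgeR adjusted p = 0.952) turned negative with total-count scaling, with totals that leave out mitochondrial genes and with FPKM. Fibrillin 1 (Fbn1), the main protein of microfibrils, had the lowest value of the class at -0.92 ± 0.23 (edgeR adjusted p = 0.0648), and Fbln5 was at -0.81 ± 0.33, Fbln2 at -0.62 ± 0.21, Mfap5 at -0.36 ± 0.35 and Mfap4 at -0.30 ± 0.31.

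Of 10 fibronectin and matricellular genes tested, 3 fell and the median was -0.63. Sparc was at 110 and 92.5 CPM in the shams and 57.6 and 67.8 CPM in the TAC libraries. It fell by 38.1% (-0.69 ± 0.11, edgeR adjusted p = 0.0220). Sparcl1, also known as hevin, was at 139, 117, 67.3 and 82.3 CPM and fell by 41.4% (-0.77 ± 0.12, edgeR adjusted p = 0.0200). In both genes the gap between the groups was wider than the gap within either group, and these were the only 2 of the 37 called under every one of 13 other ways of processing or leaving out a library.

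Thbs2, a thrombospondin that inhibits vessel growth, was at 4.99, 6.53, 2.44 and 2.54 CPM. Unlike most of the genes it was higher in sham 2 than in sham 1, and it fell by 56.8% (-1.21 ± 0.22, edgeR adjusted p = 0.0281). Thbs4, a thrombospondin known to be induced in heart muscle under load, was the only gene of the 37 with both TAC libraries above both shams, at 2.09, 1.53, 3.62 and 2.70 CPM. The counts behind these values were 66, 44, 101 and 66, and the log2 fold change of 0.80 ± 0.28 was not called (edgeR adjusted p = 0.125, and 0.0727 to 0.459 over the alternatives). Thbs1 was at -0.58 ± 0.32 and Thbs3 at -0.89 ± 0.45, neither of them called. Both values leaned on sham 1, and without that library Thbs1 was at 0.05 and Thbs3 at -0.28.

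Fibronectin (Fn1), which cells bind through integrins, was at -0.87 ± 0.24 (edgeR adjusted p = 0.0793). Periostin (Postn), a marker of activated fibroblasts, was at -0.47 ± 0.19 (edgeR adjusted p = 0.162), matrix Gla protein (Mgp), an inhibitor of calcification, at -0.40 ± 0.22 and Tnc at -0.15 ± 0.54 on 8 to 16 counts. None of these 4 passed the edgeR test, while DESeq2 called Fn1 lower (adjusted p = 0.00471).

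Sequence from 250 bases before to 50 after the annotated start (RefSeq, GRCm38.p6, the mm10 build) was available for 23 of the 38 genes, in 30 windows. The windows of Dpt and Thbs2, which had the largest falls, and of Thbs4, with the largest value above 0, are shown to set the genes at both ends of the range beside each other, although Thbs4 did not pass the test. They lie at chr1:164796413-164796712 on the plus strand, chr17:14694213-14694512 on the minus strand and chr13:92794769-92795068 on the minus strand. Capitals mark the letters TATAAA, the core of a TATA box, in Dpt and Thbs2, and GGAATG, the core bound by TEAD factors, in Thbs4, on either strand.
Dpt: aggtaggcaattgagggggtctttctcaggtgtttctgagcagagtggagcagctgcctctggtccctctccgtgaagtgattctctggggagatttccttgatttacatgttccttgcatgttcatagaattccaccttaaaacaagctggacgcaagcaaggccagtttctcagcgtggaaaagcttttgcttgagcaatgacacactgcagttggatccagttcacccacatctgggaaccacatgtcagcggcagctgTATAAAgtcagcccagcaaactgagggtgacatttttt
Thbs2: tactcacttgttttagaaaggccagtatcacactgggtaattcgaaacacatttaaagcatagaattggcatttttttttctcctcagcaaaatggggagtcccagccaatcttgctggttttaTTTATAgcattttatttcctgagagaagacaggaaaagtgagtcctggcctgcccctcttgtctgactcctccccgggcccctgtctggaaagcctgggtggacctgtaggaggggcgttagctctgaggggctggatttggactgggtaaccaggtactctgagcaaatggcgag
Thbs4: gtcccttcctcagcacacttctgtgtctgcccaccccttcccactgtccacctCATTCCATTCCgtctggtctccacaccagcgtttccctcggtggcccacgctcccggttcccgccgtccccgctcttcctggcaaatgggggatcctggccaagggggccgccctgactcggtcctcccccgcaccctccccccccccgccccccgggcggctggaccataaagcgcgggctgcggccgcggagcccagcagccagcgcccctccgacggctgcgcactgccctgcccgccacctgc
In Dpt the match begins at position 12 after the start, in Thbs2 at -126 on the opposite strand, and in Thbs4 a pair of overlapping matches on the opposite strand begin at -197 and -192. Over the windows of the 23 genes, TATAAA was found in 8 of 30 (26.7%, against 13.6% of 32817 windows of all genes) and GGAATG in 3 of 30 (against 14.7% of all). TGANTCA, the core bound by AP-1, was found in 0 of 30 (7.8% of all). Windows with TATAAA belonged to Ddr2, Dpt, Ogn, Postn, Spp1, Thbs2 and Tnc, of which Dpt, Ogn and Thbs2 were among the called genes. The windows of Sparc and Nid1, also called, held no TATAAA. Windows with GGAATG belonged to Nid1, Ogn and Thbs4. A match describes the letters in the window and not a site in use.

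None of the 4 lysyl oxidase genes was called by edgeR or DESeq2, with 1 lower at an unadjusted edgeR p under 0.05 and a median of -0.70. Loxl1, which is needed for elastic fibres and had the highest FPKM of the class, was at 10.9, 7.85, 6.13 and 7.73 CPM. Sham 2 and TAC 2 were nearly equal, and the change of -0.44 ± 0.20 did not pass the test (edgeR adjusted p = 0.204). Lox was at -0.77 ± 0.52, Loxl2 at -0.62 ± 0.21 and Loxl3 at -0.86 ± 0.47. Lox and Loxl3 rested on 10 to 52 counts per library, and differences of this size did not pass the test at this depth.

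Of the 4 basement membrane genes 1 fell, and the median of -0.28 was the closest to 0 of the 6 classes. Nid1, which links laminin to collagen IV, was at 43.6 and 34.8 CPM in the shams and 21.4 and 27.5 CPM in the TAC libraries, and fell by 37.7% (-0.68 ± 0.15, edgeR adjusted p = 0.0477). Hspg2, the large heparan sulfate proteoglycan perlecan, was at 268, 239, 187 and 206 CPM. Its groups did not overlap, and its change of -0.37 ± 0.09 lay just outside the threshold (edgeR adjusted p = 0.0559) and inside it in 5 of the 13 alternatives. The laminin chains stood nearer to 0, with Lamb1 at -0.18 ± 0.10 and Lamc1 at -0.13 ± 0.09. For Lamc1 the direction differed between units, because the length implied by count and FPKM differed 1.38-fold between libraries and the mean FPKM was 12.9 in sham and 13.9 in TAC. Like differences in implied length were seen for Thbs3 (1.62-fold), Ddr2 (1.498-fold), Vcan (1.44-fold) and Mfap5 (1.24-fold).

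The 4 libraries could also be ordered within their groups. Sham 1 was above sham 2 for 35 of the 37 genes (48.9% of all genes), with Ogn and Thbs2 the exceptions, and TAC 1 was below TAC 2 for 35 of 37 (50.1% of all genes), with Thbs4 and Lamb1 the exceptions. The median log2 difference was 0.41 between the shams and -0.31 between the TAC libraries, against -0.62 between the groups. The difference between hearts of one group was therefore of the same order as the difference between the groups, and the genes moved together in it. With sham 1 left out, 7 genes were called lower in place of 9 (2.37% of all genes in that fit) and the median log2 fold change was -0.31. Leaving out sham 2 gave 15 calls (3.54% of all genes) and a median of -0.82. Without TAC 1 there were 2 calls, Sparc and Sparcl1 (0.916% of all genes), and a median of -0.37, and leaving out TAC 2 gave 16 calls (6.01% of all genes) and -0.81. The share of all genes called thus moved in the same direction as the count of these genes. Each of these medians was below the median of all genes in the same fit.

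**Figure D3:**
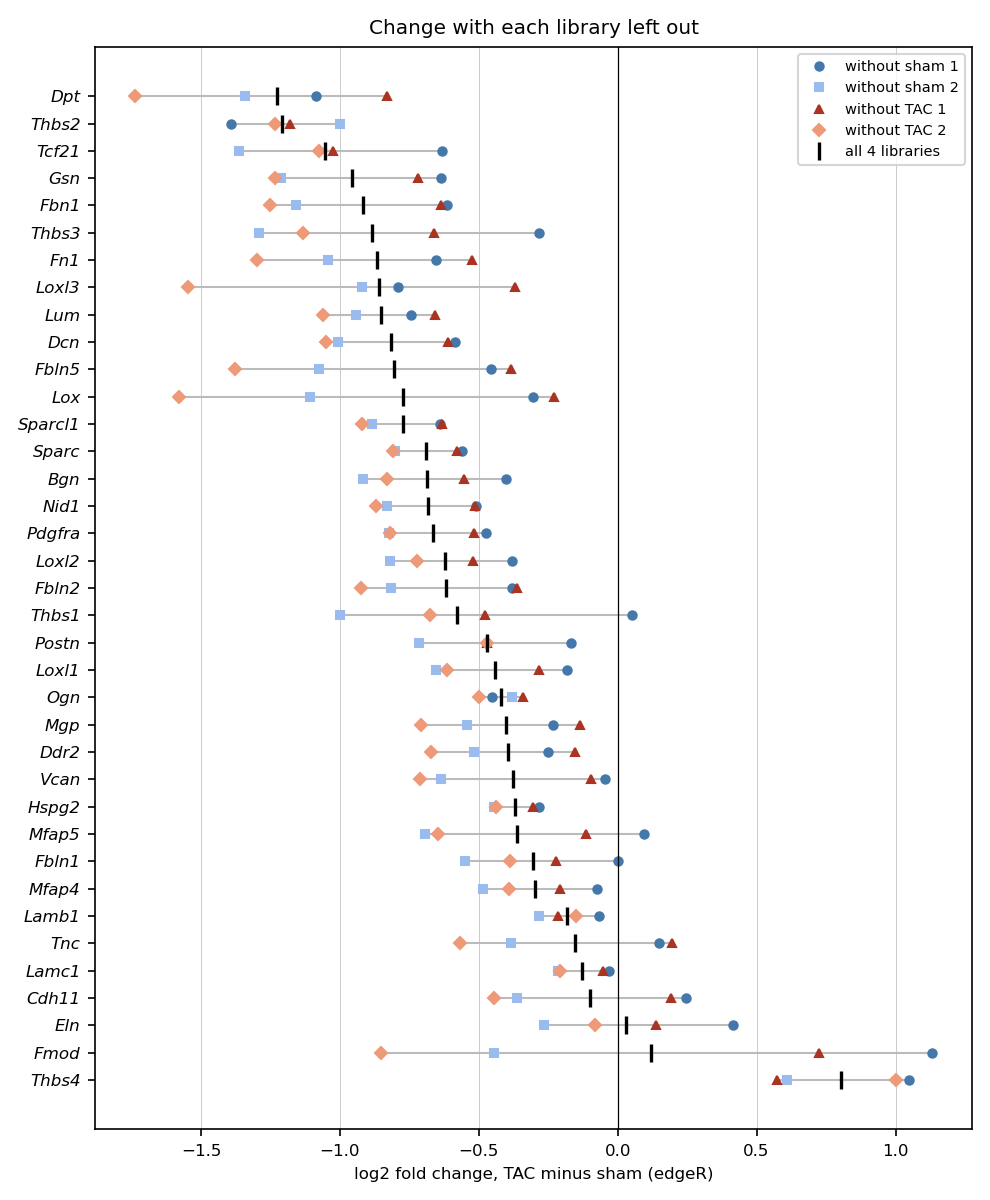
Log2 fold change of TAC against sham (edgeR) for the 37 genes tested, with all 4 libraries (black bar) and with each library left out in turn (coloured points); the grey line spans the 4 points. Points without sham 1 or TAC 1 lie nearer to 0 for most genes, and points without sham 2 or TAC 2 lie further from it; Sparc and Sparcl1 have short spans (-0.81 to -0.56 and -0.92 to -0.63).

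Most markers of other cell types were lower in TAC as well. The 14 other fibroblast markers had a summed level of 157 and 110 CPM in the shams and 62.4 and 88.0 CPM in the TAC libraries, all 14 were negative with a median of -0.79, and 1 (Cygb) was called lower by edgeR and 5 by DESeq2. Of these 14, Col1a1, Col1a2 and Col3a1 are also among the 8 collagens given below. No marker of this or the other cell type lists was at 0 in every library. The 15 endothelial markers summed to 877, 736, 427 and 582 CPM, all 15 were negative (median -0.62), and 5 were called lower by edgeR and 9 by DESeq2, with Fabp4 at -0.95 ± 0.13 (edgeR adjusted p = 0.0148) and Cdh5 at -0.85 ± 0.12 (edgeR adjusted p = 0.0149). In both lists the libraries took the order seen for the 38 genes. The macrophage markers summed to 145, 73.3, 39.8 and 75.2 CPM, and the 13 tested were all negative (median -0.90), with none called by edgeR, 6 at an unadjusted p under 0.05 and 1, Cd163, called by DESeq2. Of 12 mural cell markers 11 were negative (median -0.69) and 2 were called lower by edgeR, Pdgfrb and Abcc9, the latter also expressed by cardiomyocytes. DESeq2 also called Tagln lower and Des higher, and the summed level, led by the muscle gene Des, was 2275 to 2408 CPM in sham and 2436 to 2600 CPM in TAC. Mesothelial markers summed to 5.49 to 8.75 CPM in sham and 5.16 to 10.3 CPM in TAC, and the 5 tested had a median of -0.10 and no call (edgeR and DESeq2; 1 higher with edgeR at an unadjusted p under 0.05). Of 12 cardiomyocyte markers 1 was called higher, Tnnc1, and none lower by edgeR, with 9 positive, 3 negative and a median of 0.21. DESeq2 called 6 of them higher and 1 lower, Ryr2. How far carried-over cells take part in the changes of the 38 genes was not tested.

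The level of each gene was therefore also set against the summed CPM of the 14 other fibroblast markers in the same library, a description chosen after the values were seen and given with no test. Col1a1, Col1a2 and Col3a1 made up 64.0% to 67.8% of that sum, so that the ratio was mostly one to these collagens. Dcn per fibroblast marker was nearly level, at 0.610 and 0.648 in the shams and 0.643 and 0.620 in the TAC libraries, and its highest value was 1.06 times its lowest. Gsn was at 1.69, 1.62, 1.503 and 1.53 and Fbn1 spanned 1.13-fold, so that these 3 were the genes with a span under 1.2-fold. In this ratio the groups overlapped for 16 of the 37, both TAC libraries were lower for 3 (Gsn, Dpt and Fbn1) and higher for 18, with a median log2 ratio of TAC to sham of 0.22. Because the summed markers were themselves lower in TAC, most genes were higher in this ratio. Over all 12499 genes, both TAC libraries were higher for 76.2% and lower for 2.1%, with a median log2 ratio of 0.81. Thbs4 had the widest gap of groups, at 0.0133 and 0.0140 in the shams against 0.0580 in TAC 1 and 0.0307 in TAC 2. The basement membrane genes Hspg2 (1.71, 2.18, 2.99 and 2.34) and Lamc1 (0.621, 0.782, 1.27 and 1.00) were higher in both TAC libraries too. So were genes of other classes, among them Eln, Cdh11, Fbln1, Mfap4 and Ddr2. Among the called genes, Dcn, Sparc, Sparcl1, Lum, Ogn, Thbs2 and Nid1 overlapped between the groups in this ratio. Against the other 11 markers without these collagens, the highest value of Dcn was 1.07 times its lowest and the median log2 ratio of the 37 genes was 0.17. Both TAC libraries were then lower for 2, Gsn and Dpt (2.7% of all genes), and higher for 17 (77.5% of all genes), and 6 genes spanned under 1.2-fold. Of the called genes that overlapped before, only Nid1 changed, and was then higher in both TAC libraries (0.865, 0.883, 0.971 and 0.894).

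**Figure D4:**
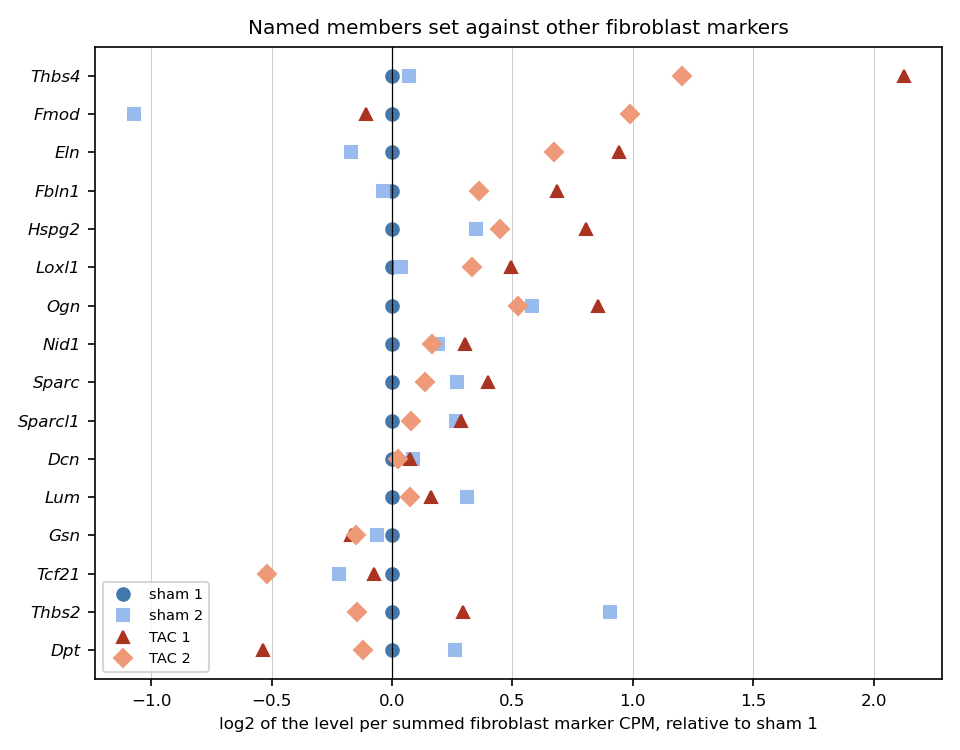
For the 16 genes named with their values in every library, the level per summed CPM of 14 other fibroblast markers, on a log2 axis relative to sham 1, 1 point per library. The points of Dcn lie together (highest over lowest 1.06), those of Dpt lie left of 0 in both TAC libraries, and those of Thbs4 lie far to the right in both.

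Other genes of the same pathways were examined as lists. Of 10 other elastic fibre genes tested 1 fell, the elastin-associated Emilin2 (-0.66 ± 0.12, edgeR adjusted p = 0.0313), and the median was -0.58. Of 4 other small proteoglycans tested 1 fell, Ecm2 (-0.78 ± 0.17, edgeR adjusted p = 0.0443), with a median of -0.54. The 8 fibrillar and beaded collagens were all lower in both TAC libraries (30.3% of all genes), with a median of -0.72. Of these, Col6a1 (-0.83 ± 0.15, edgeR adjusted p = 0.0278) and Col6a2 (-0.69 ± 0.14, edgeR adjusted p = 0.0410) were called. DESeq2 also called Col1a1 and Col1a2 lower.

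Other lists held genes that rose. Among 14 other matricellular genes tested (median -0.27) edgeR called none lower, with 4 at an unadjusted p under 0.05 and 1, Tnxb, called by DESeq2. Of these genes 1 rose, Ccn2, connective tissue growth factor, which was at 44.1 and 52.2 CPM in the shams and 110 and 84.5 CPM in the TAC libraries (1.02 ± 0.14, edgeR adjusted p = 0.0127). Among 12 other basement membrane genes the median was -0.36, and agrin (Agrn), a heparan sulfate proteoglycan, fell by 0.49 ± 0.11 on the log2 scale (edgeR adjusted p = 0.0467). Among 10 other cross-linking and collagen processing genes the median was 0.06, with 3 higher and 1 lower by edgeR and 4 higher and 2 lower by DESeq2. The collagen prolyl hydroxylases P4ha1 (0.53 ± 0.08, edgeR adjusted p = 0.0149) and P4ha2 (0.48 ± 0.09, edgeR adjusted p = 0.0313) rose, as did the collagen chaperone Serpinh1 (edgeR adjusted p = 0.0498), and Pcolce, an enhancer of procollagen cleavage, fell (-0.72 ± 0.14, edgeR adjusted p = 0.0363).

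Positions were taken from the mm10 annotation, and the 38 genes lay on 17 chromosomes. The called genes were Dcn (chr10:97479609-97518143), Lum (chr10:97565128-97572703), Ogn (chr13:49608046-49624501), Nid1 (chr13:13437551-13512269), Dpt (chr1:164796644-164824266), Gsn (chr2:35256380-35307892), Sparc (chr11:55394500-55423183), Sparcl1 (chr5:104079111-104113733) and Thbs2 (chr17:14665500-14694235). Dcn and Lum are neighbours in a run of small proteoglycan genes on chromosome 10 in which both fell, whereas the next gene, Kera, had no count in any library, which allows up to 3 counts per library, and Epyc had a single count in TAC 1. Ogn ends a like run on chromosome 13, in which Ecm2 fell, Aspn was at -0.59 ± 0.21 (edgeR adjusted p = 0.127) and Omd had 3 to 8 counts. The genes just beyond Ogn, Nol8 and Iars, were at 0.23 ± 0.11 and 0.23 ± 0.10, neither of them called.

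Exons of 14 of the 38 genes overlapped those of another annotated gene, a protein-coding one in 4 cases, and of the called genes this held for Nid1, which overlaps an antisense gene. Whether counting used strand is not stated in the sources, so reads of such pairs could not be told apart.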

How the data were processed

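Per the labels, RNA of isolated cardiomyocytes was sequenced in 4 libraries, whose titles gave the groups and replicate numbers. The authors deposited 2 values per gene and library, an expected count (estimated, so not always whole) and an FPKM. The submitters' processing notes name the mm10 build, Bowtie2 2.2.8 and StringTie 1.3.1. The counting program and the handling of strand are not stated there or in the study's methods.

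Expected counts, 24237777 to 32118323 per library, were rounded and tested in edgeR 4.0.16 (R 4.3.3). After filterByExpr and TMM scaling (factors 0.868 to 1.10), genes were fitted by quasi-likelihood without a block, TAC against sham, and adjusted by the Benjamini-Hochberg method over 12499 genes. Across libraries of a group the common biological coefficient of variation came to 10.5%. The standard error was the log2 fold change divided by the square root of F. P-values measure the spread between these libraries, pooled over genes, since n = 2 per group. CPM used the TMM-scaled sizes of the filtered libraries. The script was tested on simulated counts.

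Alternatives were DESeq2 1.42.0, limma 3.58.1 on log2(FPKM + 0.1) and log2(FPKM + 1) with a minimum mean FPKM of 0.1, other filters and scalings (including the total counts named by the study), a replicate block and leaving out each library. The study speaks of pairs of sham and TAC mice, but neither it nor the labels say that the replicate numbers mark those pairs, so the libraries were not paired.

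Values in every library were given for genes called, the 3 highest and 3 lowest log2 fold changes and the highest mean FPKM of each role. Of other lists, at most 3 called genes were named, and a result for a single gene is not reported here. Members and lists were chosen with earlier results of these data known. Positions came from the GENCODE annotation of mm10 and promoters from RefSeq.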

Additional observations from a re-analysis of the deposited data

How the results depend on the processing

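With 2 hearts per group, single calls depended on the processing, while no gene of the 38 was called higher under any alternative run. Against 9 genes lower with edgeR, 16 were called with no low-count filter (6.05% of all genes, against 2.43% in the test of the report), 2 by limma on log2(FPKM + 0.1) (1.28%), 3 on log2(FPKM + 1) (1.49%), 14 at an adjusted p under 0.1 (7.51% of all genes) and 0 at an adjusted p under 0.01 (0.176%), where 18 had an unadjusted p under 0.05 and DESeq2 called 13 at 0.05. Leaving out each library gave 2 to 16, with the lone library of a group assumed to vary like the others. Other filters and scalings gave 6 to 11 (2.28% to 3.6% of all genes). Of the 9, only Sparc and Sparcl1 were called in all 13 alternatives, with Gsn called in 7, Nid1 in 8, Lum, Ogn, Dpt and Thbs2 in 9 each and Dcn in 10. Except for Sparc and Sparcl1, each of the 9 lost its call without TAC 1, as did Lum and Nid1 without sham 1 and Ogn and Thbs2 without sham 2. With a replicate block 11 genes were called lower (2.38% of all genes). The libraries sharing a number did not deviate together (correlation -0.24 across 12499 genes, which are not independent), and pairing them crosswise, an alternative chosen after seeing the data, gave 17 (9.3% of all genes).

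The median log2 fold change of -0.62 was -0.31 without sham 1 and ranged from -0.82 to -0.31 with each library left out. Total-count scaling moved the median of all genes to -0.20 and that of the 37 genes to -0.79. The log2 ratio of the summed level was -0.58 in CPM and -0.82 in FPKM, and -0.73 to -0.41 with each library left out, also chosen after seeing the data. Fmod turned from 0.12 to -0.041 with total counts, -0.017 with log2(FPKM + 0.1) and -0.001 with log2(FPKM + 1), and ranged from -0.85 to 1.13 with a library left out. Eln turned from 0.03 to -0.16 with total counts, -0.075 without mitochondrial genes in the totals, -0.18 with log2(FPKM + 0.1) and -0.12 with log2(FPKM + 1), and ranged from -0.26 to 0.42. Fbln1 ranged from -0.55 to 0.002. The cause of these changes was not tested. Over 16 named genes and 13 alternatives, 158 of the 206 values with an adjusted p kept their direction and side of the threshold, 30 lost and 6 gained a call, and 12 changed sign.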
